A study of Mus musculus with 69 samples.

Results

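The transcripts described here encode 10 receptors and adaptors best known from natural killer (NK) cells and also carried by CD8+ T cells: Klrd1, Klrk1, Klrc1, Klrc2, Klrg1, Klrb1c, Ncr1, Tyrobp, Fcer1g and Hcst. They were taken by name and are 10 of the 24309 genes counted in every table, and each of the 10 had its own entry in the CD8+, the CD4+ and the retrovirus tables. RNA-seq covered 69 libraries from mice with germline deletions of Stat5a and Stat5b, the genes for the transcription factors downstream of the IL-2, IL-7 and IL-15 receptors. Wild-type (WT) mice were Stat5a+/+ Stat5b+/+, AAB mice were Stat5a-/- Stat5b+/- and so kept a single Stat5b allele, and BBA mice were Stat5a+/- Stat5b-/- and kept a single Stat5a allele. CD8+ T cells from lymph nodes and spleen, pooled, were sorted as naive (Tnv, CD44 low and CD62L high), central memory (Tcm, high for both) or effector memory (Tem, CD44 high and CD62L low). Each state was profiled without cytokine (NC) or after 12 to 16 h with IL-15, and Tnv and Tcm also with IL-7, which gave 24 groups of 2 libraries over the 3 genotypes. Naive CD4+ T cells (Tnv) of the same genotypes were profiled without cytokine or with IL-7, in 15 libraries of 6 groups. A last set held 4 libraries of AAB cells, labelled as CD8+ T cells that were activated in culture, of which 2 carried a retrovirus for constitutively active STAT5A (CA-STAT5A) and 2 an empty vector. Germline deletion removes STAT5 from every cell of the mouse, and the study describes its replicates as biological, from several mice per group. The labels do not tie a library to an animal, and the p-values measure the spread between these libraries.

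In NK cells and some T cells, CD94 (Klrd1) pairs with a member of the NKG2 family. With NKG2A (Klrc1) it forms an inhibitory receptor, with NKG2C (Klrc2) an activating one, and both bind the non-classical class I molecule Qa-1 (H2-T23). NKG2D (Klrk1) pairs with itself, binds stress-induced ligands of the Raet1, H60 and Ulbp1 families, and signals through the adaptor DAP10 (Hcst) or, in mice, DAP12 (Tyrobp). DAP12 and the Fc receptor gamma chain (Fcer1g) are adaptors with an immunoreceptor tyrosine-based activation motif that recruit the kinases Syk and Zap70. KLRG1 (Klrg1) is an inhibitory receptor for cadherins and marks terminal effector cells, NK1.1 (Klrb1c) is the classical mouse NK marker, and NKp46 (Ncr1) is an activating receptor of NK cells and related innate lymphocytes. On CD8+ T cells these receptors tune the T cell receptor signal and are known as features of antigen-experienced cells.

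In the GENCODE M21 annotation of GRCm38, 6 of the 10 genes lie on chromosome 6, all but Klrg1 in the NK gene complex. Klrd1 is at chr6:129591782-129598775 on the plus strand and is followed by Klrk1 (chr6:129610323-129623864), Klrc2 (chr6:129647496-129660689) and Klrc1 (chr6:129666015-129678973), all on the minus strand. Klrg1 (chr6:122270596-122282882) and Klrb1c (chr6:128778485-128789215) lie farther off on the same strand. The adaptors Tyrobp (chr7:30413760-30417585, plus) and Hcst (chr7:30417712-30419854, minus) are neighbours on chromosome 7, Ncr1 is at chr7:4337724-4345164 and Fcer1g at chr1:171229572-171234365. Klrc1 and Klrc2 resemble each other and Klrc3 in sequence, so reads may have been split among them. Klrb1c shares 413 exon bases, 13.9% of its exons, with Gm44511 on the same strand, a gene without an entry in the CD8+ counts. How far the counts of Klrc1, Klrc2 and Klrb1c are affected is not known.

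Klrc1 was the member called most often between deficient and WT cells, so the 250 bases before its start are shown, from RefSeq on GRCm38.p6 (chr6:129678974-129679223, minus strand, 5′ to 3′).
Klrc1: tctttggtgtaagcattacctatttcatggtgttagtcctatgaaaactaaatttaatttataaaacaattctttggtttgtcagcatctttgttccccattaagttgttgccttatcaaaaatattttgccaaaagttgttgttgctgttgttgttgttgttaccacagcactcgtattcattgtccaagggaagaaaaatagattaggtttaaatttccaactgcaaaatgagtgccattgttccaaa
The motif TTCNNNGAA, the palindrome that STAT5 is known to bind, was searched over 250 bases before to 50 bases after each start, on both strands at once because it is palindromic. It was found in none of the 9 windows that RefSeq gave for 7 of the members, while 8.3% of the 32851 windows of all genes held it. That says only that these letters are not in those windows. There was no entry for Klrd1, Klrg1 and Tyrobp.

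Counts per library ranged from 5926139 to 25612758 in CD8+ cells, from 6705004 to 34118295 in CD4+ cells and from 11020965 to 16516525 in the retrovirus set. The deleted genes followed the labels. Stat5a was at a normalised read count (CPM, a gene's reads scaled to a common library total) of 0.962 to 4.87 in the 16 AAB CD8+ libraries against 32.3 to 107 CPM in WT, and Stat5b at 48.6 to 93.6 CPM in BBA against 163 to 351 CPM in WT. In CD8+ libraries Cd8a stood between 694 and 2009 CPM, and 1 WT Tnv library with IL-15 (replicate 2) also had 236 CPM of Cd4. That library enters every comparison with WT Tnv cells given IL-15, and the part of CD4+ cells there was not tested.

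The 4 retrovirus libraries went against their label as CD8+ T cells. Cd8a was at 1.40 to 3.16 CPM there, Cd8b1 at 0.303 to 1.56 CPM and Cd3e at 2.79 to 14.8 CPM, while the NK genes Klre1 (200 to 415 CPM) and Itga2 (158 to 260 CPM), neither of them a member, were abundant. The summed level of 19 NK lineage genes was 2107 to 3682 CPM in these libraries, 7.38 to 82.6 CPM in the CD8+ libraries and 7.21 to 30.3 CPM in the CD4+ libraries. They are called the retrovirus libraries below, and no value of theirs is set against the CD8+ table by a test, since the tables were normalised separately.

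Levels below are CPM after scaling by the trimmed mean of M values (TMM), and levels of different genes are compared only per kilobase of exon. The length is that of all annotated exons of a gene joined, which can exceed that of a single transcript. It was 7183 bases for Klrk1, 5812 for Klrc2 and 1984 for Klrc1, and the order of genes depends on it. Across the 48 CD8+ libraries Hcst was highest, with a median of 93.8 CPM per kb, and was followed by Klrd1 with a median of 44.1. Klrk1 (4.78), Tyrobp (4.69) and Klrc1 (4.26 CPM per kb) lay close together, with ranges over libraries that overlapped. Before division by length their medians were 34.4, 3.13 and 8.46 CPM. Fcer1g had a median of 1.57 CPM per kb, and Klrg1, Ncr1, Klrb1c and Klrc2 were below 0.4. Klrg1 and Klrc2 had no read in 8 CD8+ libraries each and Ncr1 none in 5. In the 15 grouped CD4+ libraries Hcst was again highest (median 51.5 CPM per kb) and Klrd1 next (2.16), while Klrc1 had no read in 11 of 15, Ncr1 in 12 and Klrc2 in 14.

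**Figure D1:**
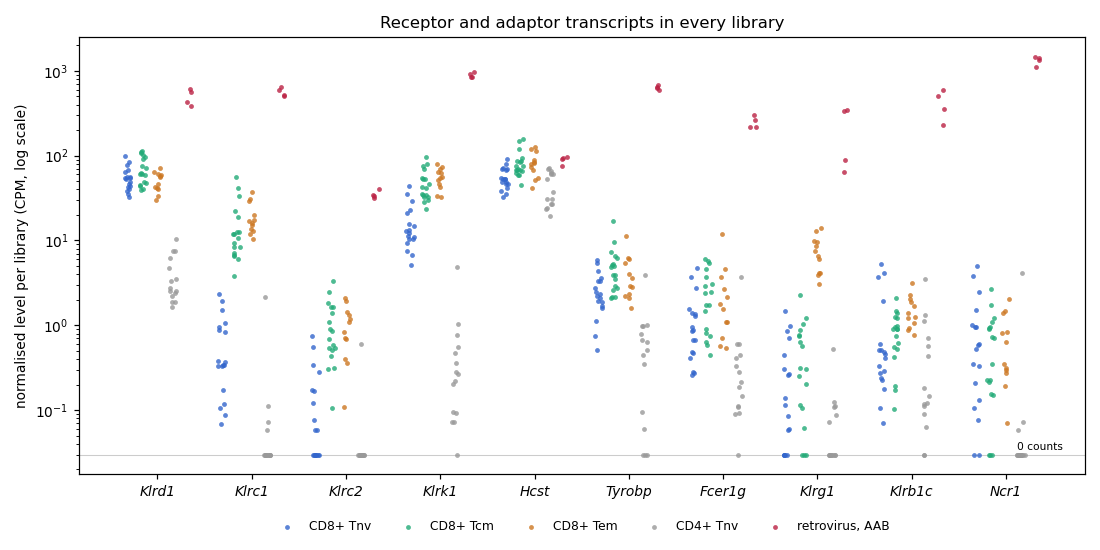
Normalised level (CPM, log scale) of each receptor and adaptor transcript, 1 point per library, coloured by cell state or set; points on the lower line had 0 counts. Hcst and Klrd1 lie between 30.3 and 157 CPM in all CD8+ libraries, Klrc1 and Klrk1 are higher in Tcm and Tem than in most Tnv libraries, Klrg1 separates Tem from the other states, and 9 of the 10 transcripts are highest in the retrovirus libraries, Hcst being the exception; the CD8+, CD4+ and retrovirus tables were normalised separately.

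The states were compared in WT cells to place each receptor before the genotypes. A difference was called at a Benjamini-Hochberg adjusted p below 0.05 and more than 1.5-fold, by edgeR's quasi-likelihood test over all genes that passed the filter on low counts. Over 4 comparisons and 20 tests of members, 6 rose with memory or effector state and 0 fell. The filter kept a gene that was above its threshold in any library. Klrg1 was kept through Tem and Klrc1 through Tcm and Tem, so against the lower states these could only be called as rising. The same limit holds below for any gene, markers and listed genes included, that passed only through the group where it was high. As background, 2.71% of all tested genes were called for Tcm against Tnv and 1.90% for Tem against Tcm (NC), and 7.38% and 2.0% after IL-15.

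Klrc1, the inhibitory partner of CD94, was nearly absent from naive cells. Without cytokine the 2 WT Tnv libraries had 0.382 and 0.174 CPM (5 and 3 reads), the Tcm libraries 22.6 and 10.7 CPM and the Tem libraries 28.9 and 20 CPM. No Tnv library of any genotype or culture exceeded 2.36 CPM and no Tcm or Tem library fell below 3.86 CPM. The log2 difference of Tcm from Tnv was 5.90 (SE 0.59, adjusted p = 0.00531) without cytokine and 5.98 (SE 0.62, adjusted p = 0.00869) with IL-15, and rests on few reads in Tnv. Klrk1 rose in steps, from 12.4 and 10.5 CPM in Tnv to 41.8 and 30.1 in Tcm and 79.0 and 69.8 in Tem. The groups did not overlap, and the log2 differences were 1.65 (SE 0.18, adjusted p = 0.00759) for Tcm over Tnv and 1.09 (SE 0.17, adjusted p = 0.0309) for Tem over Tcm. With IL-15 Klrk1 was again higher in Tcm than in Tnv, by 2.29 on the log2 scale (SE 0.20, adjusted p = 0.00583), while its difference of Tem from Tcm, 0.95 (SE 0.18), had an adjusted p of 0.0579.

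Klrg1, the marker of terminal effector cells, was highest in the CD62L low sort. WT Tem libraries without cytokine had 9.56 and 9.89 CPM, Tcm 1.03 and 0.744 CPM and Tnv 0.305 and 0.116 CPM. The log2 difference of Tem from Tcm was 3.52 (SE 0.37, adjusted p = 0.00845). Over all genotypes and cultures the 12 Tem libraries held 3.05 to 14.0 CPM (median 7.08) and the other 36 CD8+ libraries at most 2.26 CPM. Klrd1 and Hcst, by contrast, were present in every state. The median of Klrd1 was 54.0 CPM in Tnv, 62.0 in Tcm and 51.7 in Tem, and its range in Tnv (32.2 to 100.0 CPM) enclosed most of the range in Tcm (39.0 to 113) and Tem (30.3 to 72.4). In bulk RNA a change in the share of cells that carry a transcript cannot be told apart from a change in its level per cell.

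The genotype comparisons address which members depend on STAT5 dose, and on which paralog is left. Of 37 tests of members in 8 CD8+ conditions, BBA cells differed from WT in 3, with 1 higher and 2 lower. Of all tested genes, the test called 2.78% (NC), 2.69% (IL-7) and 9.71% (IL-15) for Tnv. For Tcm it called 0.287%, 3.09% and 23.8% under the same cultures, and for Tem 0.207% (NC) and 1.18% (IL-15). AAB cells differed from WT in 0 of the 37 tests by edgeR, with 10 at an unadjusted p below 0.05 and 4 called by DESeq2. That unadjusted p was reached by 373 of 9741 genes in Tcm NC, the fewest, and by 2528 of 10098 in Tcm with IL-15, the most. Of all genes, 0.166%, 0.257% and 0.933% were called for Tnv, then 0.0411%, 0.0598% and 4.4% for Tcm, then 0.0197% and 0.0190% for Tem, with the cultures in that order. Compared directly, AAB and BBA differed in 0 of 37 tests by edgeR, with 5 at an unadjusted p below 0.05 and 2 called by DESeq2. Here that unadjusted p was reached by 465 of 9741 genes in Tcm NC, the fewest, and by 2971 of 10098 in Tcm with IL-15, the most. The edgeR calls were 0.551%, 0.148% and 0.0702% of all genes for Tnv, 0.0411%, 0.0898% and 6.0% for Tcm, and 0.0197% and 0.00949% for Tem. With same-numbered libraries as a block, 10 tests of members were called for BBA against WT, 4 for AAB against WT and 2 for AAB against BBA. For the block and for DESeq2 the share of all genes called was not taken, so those counts have no background beside them. Klrd1, Klrk1 and Hcst passed the filter in all 8 conditions, Klrc1 in the 5 of Tcm and Tem, Tyrobp in 3, Klrg1 in 2, Fcer1g, Klrb1c and Ncr1 in 1 each, and Klrc2 in none.

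The fitted level of Klrc1 was below WT in both deficient genotypes in every Tcm and Tem condition, and past the test in BBA cells given IL-15. In Tcm with IL-15 the WT libraries had 33.4 and 12.7 CPM, the AAB libraries 11.9 and 8.45 CPM and the BBA libraries 8.47 and 6.02 CPM. Both BBA libraries lay below both WT libraries, which were themselves far apart. The log2 difference of BBA from WT was -1.64 (SE 0.46, adjusted p = 0.0263), and that of AAB -1.15 (SE 0.44, adjusted p = 0.154). In Tem with IL-15 the values were 37.1 and 30.7 CPM in WT, 17.2 and 17.4 in AAB and 13.8 and 15.3 in BBA. Here the replicates were close and the groups did not overlap, with a log2 difference of -1.23 for BBA (SE 0.18, adjusted p = 0.0461) and -0.97 for AAB (SE 0.18, adjusted p = 0.30).

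The largest gap in Klrc1 was in Tcm with IL-7, where no call was made. WT libraries had 56.4 and 41.5 CPM, AAB 3.86 and 19.2 CPM and BBA 7.07 and 11.9 CPM. The log2 differences were -2.28 (SE 0.64, adjusted p = 0.0941) for BBA and -2.01 (SE 0.63, adjusted p = 0.368) for AAB. By Xist and Y-linked transcripts both WT libraries of this culture were male, while AAB and BBA each had 1 male and 1 female library, so sex moves with genotype there. With sex as a term the differences were -1.59 for BBA (adjusted p = 0.206) and -1.61 for AAB (adjusted p = 0.757). Without cytokine the WT, AAB and BBA libraries of Tem had 28.9 and 20.0, 11.8 and 10.5, and 16.3 and 12.9 CPM, and those of Tcm 22.6 and 10.7, 9.28 and 6.70, and 12.5 and 6.50 CPM. Across the 5 conditions the fitted difference ran from -2.28 to -0.71 for BBA and from -2.01 to -0.97 for AAB, and the 2 sets of differences share their WT libraries.

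Another transcript moved with Klrc1. Of 7 genes listed for gamma-delta and innate-like T cells, 3 were matched (Zbtb16, Sox13 and Cd163l1). In Tcm with IL-15 Cd163l1 was at 20.3 and 10.2 CPM in WT, 4.34 and 4.11 in AAB and 1.28 and 1.56 in BBA, and was called lower in BBA (log2 difference -3.37, adjusted p = 0.00113) and in AAB (-1.83, adjusted p = 0.0279). The sum of the 3 genes was 21.6 and 10.7 CPM in the WT, 5.43 and 5.07 in the AAB and 4.04 and 4.69 in the BBA libraries of Tcm with IL-15. In Tcm with IL-7 it was 59.8 and 31.9 CPM in WT, 12.7 and 22.6 in AAB and 2.22 and 2.92 in BBA, and in Tem with IL-15 13.5 and 13.1, 5.25 and 6.98, and 2.67 and 17.1 CPM. In Tcm with IL-15 nearly all of the WT sum was Cd163l1. Zbtb16 and Sox13 together were higher in the BBA than in the WT libraries there. The part of gamma-delta and innate-like T cells in the Klrc1 differences was not tested. The 19 NK lineage genes summed to 36.6 and 31.2 CPM in WT, 62.1 and 40.8 in AAB and 29.8 and 30.9 in BBA in Tcm with IL-15, and in Tem with IL-15 to 38.6 and 56.4 CPM in WT and 46.8 and 82.6 CPM in BBA, with the AAB libraries between these. In Tcm with IL-15, 3 of the 19 were tested. Ncam1 was called higher in BBA (mean of 7.44 against 1.46 CPM in WT) and Nfil3 lower (2.43 against 9.10 CPM), and Adamts14 was called higher in AAB (33.3 against 14.2 CPM). The Klrc1 call in Tem was lost when any 1 of the 6 libraries was left out (adjusted p = 0.0818 to 0.334) and under edgeR's own filter on low counts (adjusted p = 0.125), and that in Tcm without WT replicate 1 or either BBA replicate.

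**Figure D2:**
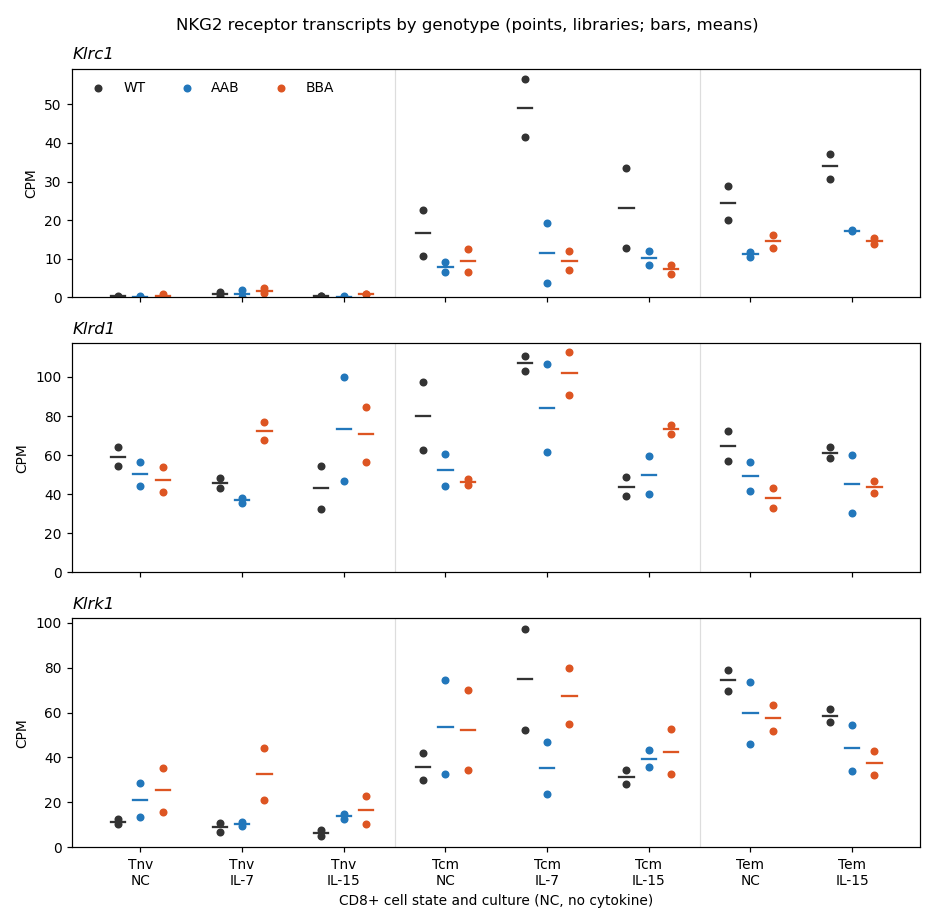
CPM of Klrc1, Klrd1 and Klrk1 in the 48 CD8+ libraries by state and culture; points are libraries, bars are means of 2, coloured by genotype. Klrc1 in WT Tcm and Tem (10.7 to 56.4 CPM) stands above AAB and BBA in most conditions, Klrd1 in BBA Tcm with IL-15 (70.9 and 75.5 CPM) stands above WT (48.8 and 39.0 CPM), and the Klrk1 points of BBA lie above those of WT in all 3 Tnv conditions.

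Klrd1, the shared CD94 chain, went the other way in BBA Tcm cells given IL-15. The libraries had 70.9 and 75.5 CPM in BBA, 59.6 and 40.3 in AAB and 48.8 and 39.0 in WT. Both BBA libraries were above all 4 others, and the log2 difference from WT was 0.78 (SE 0.20, adjusted p = 0.0178), against 0.21 (SE 0.19, adjusted p = 0.552) for AAB. Without cytokine the order was turned, with 97.3 and 62.5 CPM in WT, 60.6 and 44.1 in AAB and 44.9 and 47.6 in BBA, a log2 difference for BBA of -0.75 (SE 0.24) that missed the threshold (adjusted p = 0.380). The change of the BBA effect between no cytokine and IL-15 was itself tested in a model of both cultures, and was 1.53 on the log2 scale (SE 0.35, adjusted p = 0.0259). It was the 1 call among 30 interaction tests of members in 6 comparisons. The interaction with BBA was called for 2.42% of all genes in Tnv, 7.79% in Tcm and 0.00922% in Tem, and that with AAB for 0.318%, 0.128% and 0% of them. For AAB in Tcm the same term was 0.81 (SE 0.34, adjusted p = 0.470). Myeloid markers were higher in the same comparison. Of 9 tested myeloid markers 5 were called higher than in WT (Csf1r, Lyz2, Csf3r, Mpeg1 and Cd68) and 0 lower, and the myeloid sum was 133 and 107 CPM against 90.9 and 79.0. The means of these 5 were 0.651 to 4.81 CPM in WT and 6.62 to 21.7 CPM in BBA. A marker that the filter kept only through its BBA libraries could only be called higher. The sum of the 7 B cell markers was 258 and 532 CPM against 122 and 233, with 0 of 7 called. Their part in the Klrd1 difference was not tested.

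The ratio of Klrc1 to Klrd1, per kilobase of exon, was lower in both BBA libraries than in both WT libraries of Tcm and Tem with cytokine, and the genotypes overlapped without. In Tcm with IL-15 there were 44.2 and 21.0 Klrc1 transcripts per 100 of Klrd1 in WT, 12.9 and 13.6 in AAB and 7.71 and 5.14 in BBA. In Tem with IL-15 the ratio was 37.5 and 33.8 in WT, 18.4 and 37.1 in AAB and 22 and 21.1 in BBA, where the AAB and WT libraries overlapped. In Tcm with IL-7 it was 32.8 and 25.9 in WT, 4.05 and 11.6 in AAB and 5.03 and 6.81 in BBA. Without cytokine BBA had 18 and 8.81 against 15 and 11 in WT for Tcm, and 31.7 and 19.2 against 25.8 and 22.7 for Tem. These ratios were not tested. Klrd1 in Tem was lower in BBA than in WT without a call (33.2 and 43.3 against 72.4 and 56.8 CPM without cytokine, log2 difference -0.72, SE 0.21, adjusted p = 0.263). In Tnv with IL-7 it was higher in BBA (67.5 and 77.2 CPM) than in WT (43.0 and 48.4) and AAB (35.4 and 38.2), at a log2 difference from WT of 0.65 (SE 0.13) and an adjusted p of 0.0519. The Klrd1 call in Tcm with IL-15 rests on the scale, since a laxer filter on low counts brought the difference to 0.57 or, with no filter, to 0.54, both under 1.5-fold with adjusted p = 0.0321 and 0.00195, and it was lost without WT replicate 2 or BBA replicate 2. The interaction was lost in 7 of 12 refits that left 1 library out (adjusted p up to 0.0850).

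Klrc2, the activating partner of CD94, stayed at or under 3.31 CPM in CD8+ cells. Its WT Tcm libraries with IL-7 had 1.64 and 3.31 CPM, its Tem libraries 2.1 and 1.20 without cytokine and 1.43 and 1.94 with IL-15, and no Tnv library exceeded 0.757 CPM. BBA Tem libraries with IL-15 had 0.405 and 0.109 CPM. It did not pass the filter on low counts in any genotype comparison, so its differences were not tested.

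**Figure D3:**
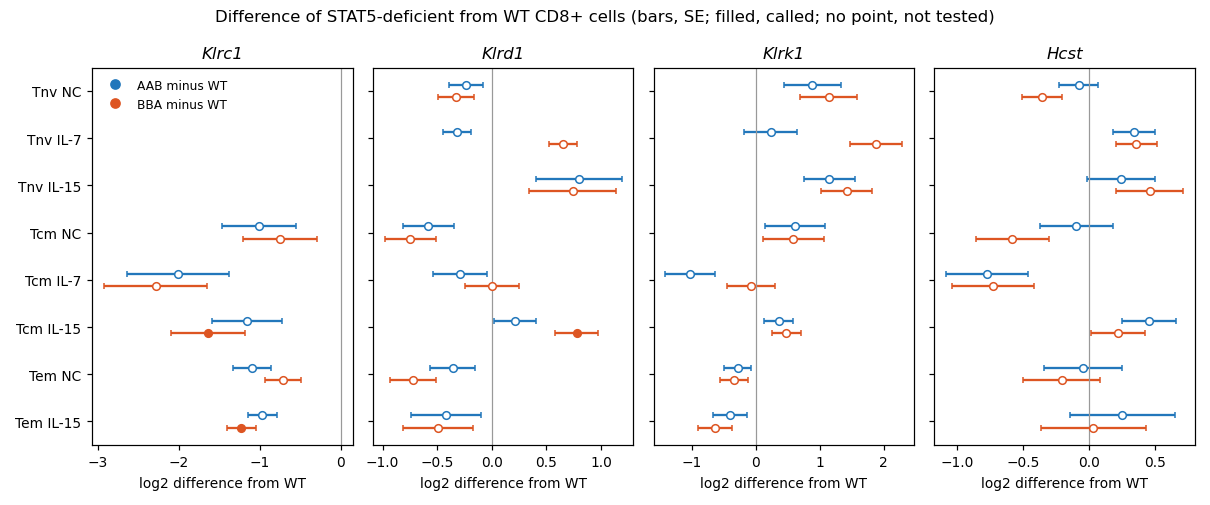
Fitted log2 difference of AAB and BBA from WT (points) with its SE (bars) for Klrc1, Klrd1, Klrk1 and Hcst in each CD8+ state and culture; filled points were called and open points were not. All 10 Klrc1 points lie below 0, the 6 Klrk1 points of Tnv lie above 0, and Klrd1 is on either side of 0.

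Klrk1 (NKG2D) was higher in deficient than in WT naive cells without passing the test. In Tnv with IL-7 the BBA libraries had 44.3 and 20.9 CPM, the WT libraries 6.68 and 11 and the AAB libraries 11.4 and 9.25. In Tnv with IL-15 the values were 22.8 and 10.4 in BBA, 14.8 and 12.8 in AAB and 7.50 and 5.18 in WT, and without cytokine 35.5 and 15.7, 28.8 and 13.5, and 12.4 and 10.5. The BBA libraries lay above the WT libraries in all 3 cultures but were far apart from each other. The log2 differences of BBA were 1.88 (SE 0.41, adjusted p = 0.0725), 1.42 (SE 0.40, adjusted p = 0.0652) and 1.15 (SE 0.44, adjusted p = 0.183) in the order given. The WT library at 5.18 CPM was the one with 236 CPM of Cd4, and its part in the IL-15 difference was not tested. In Tem the sign was the other, with 63.4 and 51.9 CPM in BBA against 79.0 and 69.8 in WT without cytokine and 43.1 and 32.4 against 61.7 and 55.6 with IL-15, at adjusted p = 0.706 and 0.294.

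Hcst, the DAP10 adaptor of NKG2D, did not differ between genotypes by the test in any CD8+ condition (fitted differences from WT of -0.77 to 0.46, adjusted p from 0.204). In WT Tnv its NC libraries had 90.7 and 70.2 CPM, its IL-7 libraries 38.6 and 35.2 and its IL-15 libraries 53.5 and 32.8. The 32.8 CPM was in the library with 236 CPM of Cd4. Both cytokine groups lay below the group without cytokine, and the fall with IL-7 was -1.12 on the log2 scale (SE 0.23, adjusted p = 0.0113), while that with IL-15, -0.87 (SE 0.23), had an adjusted p of 0.0571. It was the 1 call among 27 tests of members between cytokine and no cytokine in WT CD8+ cells. Of all genes, IL-7 changed 20.2% and IL-15 6.17% for Tnv, 0.353% and 0% for Tcm, and IL-15 changed 1.52% for Tem.

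In deficient cells 4 of 44 such tests of members were called. Of all genes, the calls were 9.09% (IL-7) and 10.6% (IL-15) in AAB Tnv, 9.92% and 2.86% in AAB Tcm, 0.940% in AAB Tem, 6.96% and 16.5% in BBA Tnv, 8.0% and 6.92% in BBA Tcm and 0.432% in BBA Tem. Hcst fell with IL-7 in AAB Tnv, from 80.0 and 72.2 to 52.5 and 41.1 CPM (log2 difference -0.68, SE 0.16, adjusted p = 0.0406), and in AAB Tcm, from 120 and 94.6 to 63.2 and 67.7 CPM (log2 difference -0.70, SE 0.15, adjusted p = 0.0253). Klrd1 rose in BBA Tcm, from 44.9 and 47.6 CPM without cytokine to 90.7 and 113 with IL-7 (log2 difference 1.17, SE 0.13, adjusted p = 0.00308) and 70.9 and 75.5 with IL-15 (0.71, SE 0.13, adjusted p = 0.0200). The groups did not overlap in any of the 4. In WT Tcm the NC libraries had 97.3 and 62.5 CPM of Klrd1, the IL-7 libraries 111 and 103 and the IL-15 libraries 48.8 and 39.0. By the sex-linked transcripts the Tnv libraries of every genotype and the WT Tcm libraries were all male with IL-7 and all female without cytokine, so there the IL-7 response and sex cannot be told apart. In AAB and BBA Tcm 1 of the 2 libraries with IL-7 was male and those without cytokine were female, and the part of sex was not tested. The study's methods name direct processing after the sort as the alternative to culture with a cytokine, while the labels describe culture for all libraries. If NC cells were not cultured, culture and cytokine cannot be told apart. The Klrd1 rise with IL-7 held in all 6 refits without 1 library, the Hcst fall in WT and in AAB Tcm in 3 of 6 and in AAB Tnv in 1 of 6.

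**Figure D4:**
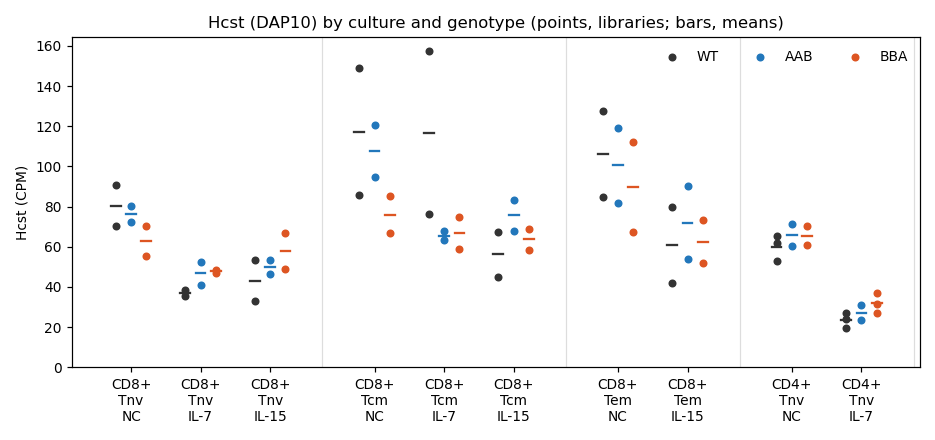
CPM of Hcst in CD8+ and CD4+ libraries by state, culture and genotype; points are libraries and bars are means. In WT naive cells the libraries with IL-7 lie below those without cytokine in the CD8+ set (38.6 and 35.2 against 90.7 and 70.2 CPM) and in the CD4+ set (19.4 to 27 against 52.7 to 65.4 CPM).

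The naive CD4+ set gave the same contrast in a lineage with little else of this group of transcripts. Over 5 comparisons and 8 tests of members, 0 rose and 2 fell, both in WT cells given IL-7. The shares of all genes called were 1.13% (BBA) and 0.373% (AAB) against WT without cytokine, 5.55% and 0.627% with IL-7, and 16.7% for IL-7 against no cytokine in WT. Hcst fell from 65.4, 61.8 and 52.7 CPM to 24.1, 27 and 19.4 CPM, a log2 difference of -1.34 (SE 0.13, adjusted p = 0.000124). All CD4+ libraries were male by the sex-linked transcripts. Klrd1, low in these cells, fell from 6.18, 10.4 and 4.73 CPM to 2.53, 1.91 and 1.65 CPM (log2 difference -1.82, SE 0.34, adjusted p = 0.00363). Without cytokine Klrd1 was at 2.40 and 2.20 CPM in BBA and 2.77 and 3.50 in AAB, below all 3 WT libraries, with adjusted p = 0.117 and 0.420. Both falls with IL-7 held in all 6 refits without 1 library.

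Tyrobp and Fcer1g, adaptors that myeloid cells also use, were low in CD8+ cells and uneven between replicates. Tyrobp ran from 0.507 to 17.0 CPM (median 3.13) and Fcer1g from 0.260 to 11.8 CPM (median 1.37). The highest Tyrobp value was in WT Tcm with IL-7 replicate 1 (17.0 CPM), against 5.10 in replicate 2. BBA Tem without cytokine had 11.3 and 2.88 CPM of Tyrobp and 11.8 and 2.70 CPM of Fcer1g. The summed level of the 13 counted of 14 listed myeloid marker genes was 798 and 438 CPM in those WT Tcm libraries and 353 and 110 CPM in those BBA Tem libraries, within a range of 38.0 to 798 CPM over the CD8+ table. Its part in the 2 adaptors' levels was not tested. No comparison of either adaptor in CD8+ cells was called, and the largest fitted difference from WT was Fcer1g in BBA Tem without cytokine (2.77, SE 1.03, adjusted p = 0.378). Fcer1g passed the filter there only through the BBA library at 11.8 CPM, so this difference rests on 1 library.

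Klrb1c and Ncr1, which mark NK cells, were at or under 5.34 and 4.95 CPM in CD8+ cells. The replicate 2 libraries of Tnv with IL-7 stood apart, with 3.69, 4.17 and 5.34 CPM of Klrb1c and 3.79, 2.48 and 4.95 CPM of Ncr1 in WT, AAB and BBA, against at most 0.507 and 1.01 CPM in replicate 1. Among the genotype comparisons both genes passed the filter only in that condition, where no difference was called (adjusted p of 0.907 to 0.997).

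The retrovirus libraries address what constitutively active STAT5A changes in AAB cells, which lack endogenous STAT5A. Stat5a was at 59.7 and 60.7 CPM in the libraries labelled CA-STAT5A against 8.41 and 3.20 CPM in those labelled empty vector. All 10 members passed the filter and 2 were called, both higher with CA-STAT5A, while 6.76% of all genes were called. Klrg1 rose from 64.3 and 88.7 CPM to 340 and 345 CPM, a log2 difference of 2.16 (SE 0.17, adjusted p = 0.00378). The replicates of each vector were close to each other and far from the other vector, and the call held without any 1 of the 4 libraries. Klrb1c rose from 350 and 230 CPM to 591 and 510 CPM (log2 difference 0.92, SE 0.21, adjusted p = 0.0498), just inside the threshold. It was lost with DESeq2's size factors (adjusted p = 0.0516) and in 3 of 4 refits without 1 library.

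The other receptors moved less. Klrd1 was at 607 and 557 CPM with CA-STAT5A against 433 and 385 CPM (log2 difference 0.51, SE 0.13, adjusted p = 0.0751), and Klrc1 at 504 and 518 against 647 and 602 CPM (-0.29, adjusted p = 0.254). The groups did not overlap for either, and there were 53.6 and 60.1 Klrc1 transcripts per 100 of Klrd1, per kilobase, with CA-STAT5A against 96.5 and 101 with empty vector. Fcer1g was at 298 and 265 against 216 and 221 CPM (0.37, adjusted p = 0.134). Klrk1 (848 and 957 against 914 and 852 CPM), Tyrobp (597 and 630 against 645 and 678), Ncr1 (1124 and 1333 against 1452 and 1398), Hcst (75.1 and 93.4 against 97.6 and 90.7) and Klrc2 (31.7 and 33.6 against 40.9 and 33.9) were not called. Other cells' markers moved with the vector too. Lyz2, a myeloid gene, was at 22.5 and 23.5 CPM with CA-STAT5A against 199 and 88.7 CPM, and the summed level of the B cell list was 20.3 and 36.4 against 223 and 182 CPM. The NK lineage sum was 3682 and 3372 CPM with CA-STAT5A against 2362 and 2107 CPM, and the myeloid sum 1497 and 1361 against 1041 and 736 CPM. In that myeloid sum Itgam, which NK cells also express, was called higher (mean of 1191 against 301 CPM), while 6 of the other 12 tested markers were called lower (Csf1r, Lyz2, Mpeg1, Spi1, Cd68 and S100a8) and 0 higher. Each vector had 1 male and 1 female library, and with sex as a term both calls were kept (log2 differences of 2.18 for Klrg1 and 0.95 for Klrb1c). The part of these cells in the Klrg1 and Klrb1c differences was not tested.

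**Figure D5:**
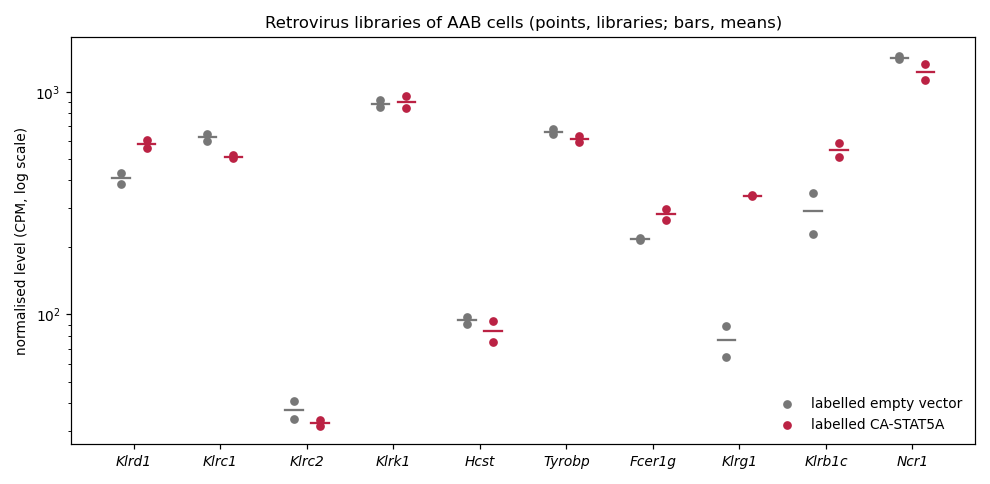
CPM (log scale) of the 10 transcripts in the 4 retrovirus libraries of AAB cells; points are libraries, bars are means of 2, grey for empty vector and red for CA-STAT5A. Klrg1 (340 and 345 against 64.3 and 88.7 CPM) and Klrb1c (591 and 510 against 350 and 230 CPM) stand apart between vectors, and Klrk1 overlaps.

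Other genes of the same biology were taken from 3 lists, of 30 further NK receptor genes, 23 signalling genes downstream of the adaptors and 12 ligand genes, of which 11 were counted. Against WT, BBA Tcm with IL-15 had 3 of 9 tested receptor genes higher and 0 lower, where 23.8% of all genes were called in either direction, with a median log2 difference of 0.39 beside 0.00 over all genes. They were Tigit, an inhibitory receptor for nectin-family ligands (log2 difference 2.19, from 1.80 to 8.01 CPM, adjusted p = 0.00633), Clec2i, a ligand of NK receptors of the Klrb1 family that stood in the ligand list too (0.74), and Cd96 (0.60). Tigit was also higher in BBA Tem with IL-15 (2.28, adjusted p = 0.0461), the 1 call among 12 receptor genes there, beside 1.18% of all genes. In Tcm with IL-7, Cd226, the activating counterpart of Tigit (0.88), and Clec2i (0.86) were higher and the Ly49 receptor gene Klra5 lower (-4.95). In Tnv with IL-15, Fcgr3 was higher (5.52) and Slamf6 lower (-1.26), and in Tnv with IL-7 Clec2i was higher (0.80). Fcgr3 had a mean of 6.64 CPM in BBA against 0.122 in WT, and Klra5 had 0.426 against 14.7 CPM. Where the filter kept Fcgr3, Klra5 or Tigit only through the genotype with the higher level, the direction of the call was fixed in advance. Fcgr3 is also one of the 14 myeloid markers.

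Among the signalling genes Sh2d1a, the adaptor SAP, was higher in BBA than in WT in Tnv with IL-7 (log2 difference 1.28) and in Tcm with IL-15 (1.30), and Pik3cd, a phosphoinositide 3-kinase subunit, was lower in Tnv NC (-0.68) and in Tem with IL-15 (-0.89). Those were the only calls in the list between BBA and WT. Between AAB and WT Vav3 was lower in Tcm with IL-15 (-0.99). Between IL-7 and no cytokine in WT Tnv, where 20.2% of all genes were called in either direction, 8 of 21 tested signalling genes fell and 0 rose (median -0.53 beside 0.00 over all genes). They included Syk (-3.33, adjusted p = 0.0475), the phosphatase gene Ptpn6 (-1.63), Rac2 (-0.95) and Zap70 (-0.81). In AAB Tnv 7 of 21 fell (9.09% of all genes called) and in BBA Tnv 4 of 21 (6.96%), Ptpn6 among them in both (-1.35 and -1.37), and in WT CD4+ cells 5 of 18 fell and 0 rose (16.7% of all genes called), Ptpn6 again (-1.82). Of the ligands H2-T23, which encodes the Qa-1 heavy chain, fell with IL-7 in WT CD8+ Tnv (-0.81) and H2-K1 fell as well (-1.08), while Cdh1, which encodes the KLRG1 ligand E-cadherin, fell with IL-7 (-2.98) and IL-15 (-2.88) and was lower in BBA than in WT without cytokine (-2.74). In the retrovirus libraries, where 6.76% of all genes were called, 1 of 25 receptor genes rose with CA-STAT5A, Klre1 (0.78), and 5 fell, among them Cd160 (-2.13), Crtam (-1.72) and Slamf6 (-1.68), with a list median of -0.03.

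The genes whose levels ran most like a member's over the 24 CD8+ group means were found among 10150 genes by Pearson's r of log2(CPM + 1). The groups share libraries' depth and the sort of each state, and the values describe likeness only. Klrc1 was most like Il18rap (r = 0.967), Tbx21 (0.947) and Snx10 (0.944), and Klrg1 most like Stk32c (0.973), Aplp1 (0.949) and Ttc39c (0.945). Klrk1 was most like Apol7b (0.910), Slc37a3 (0.903) and Samd3 (0.902). Klrd1 had no gene over 0.762 (Sri), followed by Ubl5 (0.746) and Auh (0.734), and Tyrobp was most like Rap1a (0.865), Itgam (0.857) and Plbd1 (0.846). Among the members Klrc1 and Klrc2 were most alike (r = 0.903), then Klrc1 and Klrk1 (0.838), whereas Klrc1 and its partner Klrd1 stood at 0.215.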

How the data were processed

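Bulk RNA-seq libraries of sorted CD8+ and CD4+ T cells and of retrovirus-transduced cells were compared as 3 tables of whole-number read counts per gene, deposited by the authors. By the study's methods, 50-base single-end reads were aligned with TopHat2 and counted with htseq-count. The methods name mm10 and the submitters' processing notes mm9. Summary entries that name no gene (67.0 to 68.4% of each retrovirus column) were removed. How reads shared by close paralogs or overlapping genes were counted is not given in the sources used here, so such genes are uncertain. Each comparison was fitted with edgeR 4.0.16 (R 4.3.3) by the quasi-likelihood test with TMM scaling, on its own libraries, after a re-implementation of the HTSFilter Jaccard rule (100 thresholds from 1 to 200). Benjamini-Hochberg adjustment ran over all genes tested, a call needed an adjusted p below 0.05 and over 1.5-fold, and an SE is the log2 difference over the square root of F. On simulated counts (10309 genes, BBA against WT in Tcm with IL-15) 97.0% of 2-fold changes were recovered, and 82.1% for the retrovirus comparison (10395 genes). The simulation gave all genes the same dispersion and set changes only in genes that passed the filter, so real recovery may be lower. The common coefficient of variation between libraries was 12.0% in that Tcm fit and 30.9% in Tem with IL-15, which was not simulated. Alternatives were edgeR's filterByExpr, no filter, DESeq2 1.42.0 size factors and Wald test, a replicate block, 1 fit per table and leaving out each library, and, chosen after seeing the data, edgeR's bias-adjusted fit and sex as a term. Replicates differed by more than counting error (chi-square per degree of freedom of 5.75 to 101 over 38 pairs). Genes named are the 10 members, the 3 most like genes of 5 members and at most 4 called genes per list and comparison by fold change, plus marker genes. The members and lists were chosen with earlier results of these data known. The 2 CD4+ libraries with conflicting labels were left out of all comparisons. The level of 1 marker gene is not reported here.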

Additional observations from a re-analysis of the deposited data

Results flagged for a closer look

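The effect of BBA on Klrd1 in Tcm cells differed between cultures. It was higher with IL-15 than without cytokine by 1.53 on the log2 scale, in a test of that difference itself (SE 0.35, adjusted p = 0.0259, edgeR). Both BBA libraries were below both WT libraries without cytokine and above both with IL-15. No group held 4 or more libraries, so single libraries that stand apart within a group were not tested.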

How the results depend on the processing

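Of the 19 calls of members, 16 were kept with edgeR's filterByExpr, 17 with no filter, 18 with DESeq2's size factors, 19 with DESeq2's Wald test and 19 with the bias-adjusted fit, and 9 of the 17 outside the retrovirus set in 1 fit per table. No call changed sign. The 8 lost in 1 fit per table (adjusted p of 0.0845 to 0.425) were Hcst with IL-7 in AAB Tnv and Tcm, Klrc1 in BBA Tem with IL-15, Klrd1 in BBA Tcm with IL-15 both against WT and against NC, and, without cytokine, Klrg1 and Klrk1 in Tem against Tcm and Klrk1 in Tcm against Tnv. The filters change the TMM scale, moving the median of all genes by -0.23 to 0.06 (filterByExpr) and -0.33 to 0.08 (no filter) on the log2 scale. Calls of BBA against WT (3) came to 14 with no filter and 7 with DESeq2, of AAB against WT (0) to 10 and 4, of AAB against BBA (0) to 4 and 2, and of WT cytokine responses (1) to 12 and 4. Responses of deficient cells (4) came to 7 with DESeq2 and 1 in 1 fit per table, states (6) to 13 with no filter, CD4+ cells (2) to 4 with filterByExpr and 6 with no filter, and the retrovirus set (2) to 1 with DESeq2's size factors. For these settings, the left-out libraries and the replicate block the share of all genes called was not taken, so the counts have no background. With each library left out in turn the counts were 2 to 5 for BBA, 0 to 3 for AAB, 0 to 1 for AAB against BBA, 0 to 3 and 3 to 6 for cytokine responses of WT and deficient cells, 0 to 1 for the interaction, 4 to 7 for states, 2 in all 15 refits for CD4+ cells and 1 to 2 for the retrovirus set. Klrk1 in Tcm against Tnv was lost without WT Tnv NC replicate 2 or, with IL-15, without Tcm replicate 1, Klrk1 in Tem against Tcm without either Tnv or Tem replicate, Klrg1 without Tem replicate 1, and the Klrd1 rise with IL-15 in BBA Tcm without NC replicate 2 or either IL-15 replicate. The other libraries whose loss ended a call are named in the text or numbered there, and depth limits Klrc2, Ncr1, Klrb1c and Klrg1 outside Tem.

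Same-numbered replicates correlated by -0.06 to 0.80 in CD8+ cells and 0.08 to 0.45 in CD4+ cells, above 0.1 for every pair in Tcm (NC and IL-15), Tem and Tnv with IL-7. Pairs reached 0.69 to 0.80 in Tem with IL-15, but were under 0.1 in some CD8+ and some CD4+ conditions. With 2 pairs in most comparisons and no label that ties a number to a mouse or day, whether the numbers pair samples is not settled. With the replicate block the counts were 10 for BBA, 4 for AAB, 2 for AAB against BBA, 3 and 6 for cytokine responses of WT and deficient cells, 4 for the interaction, 10 for states and 3 for CD4+ cells, and the 17 calls it could refit were kept and 25 added. With sex as a term, tried for Tcm with IL-7 and the retrovirus set, no count changed.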

Other observations

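The 2 CD4+ libraries whose labels conflict on the cytokine had 51.9 and 58.0 CPM of Hcst and 2.06 and 3.42 CPM of Klrd1, and no read of Klrc1, Klrc2, Klrg1 or Ncr1. Of the grouped CD4+ libraries, BBA with IL-7 replicate 3 had 4.16 CPM of Ncr1, 4.86 of Klrk1, 3.90 of Tyrobp, 3.73 of Fcer1g and 2.17 of Klrc1, where each other library was at or under 0.0728 CPM of Ncr1, 1.04 of Klrk1, 1.01 of Tyrobp, 0.606 of Fcer1g and 0.111 of Klrc1.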
